A study of Mus musculus with 8 samples.

Results

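The regions described here are 2 stretches of the mouse genome that hold clusters of KRAB zinc finger genes, on chromosomes 2 and 13 (build mm9), as seen by ChIP-seq of tagged histone H3 variants. The members are the rows of a genome-wide table of HA ChIP-seq signal that lie inside chr2:175000001-177800000 (the chromosome 2 window, 2.8 Mb) and chr13:66500001-67900000 (the chromosome 13 window, 1.4 Mb), chosen by position alone. There were 321 such rows, 182 on chromosome 2 and 139 on chromosome 13, of 253926 rows in the table. Of these, 130 rows in each window were 10 kb wide and averaged at least 0.5 RPM (reads scaled to library size) over the 4 libraries, and these 260 bins carry the ratios below, of 245206 such bins genome-wide. The 3 Mb on each side of a window served as its flanks, with 576 bins passing the same filter around the chromosome 2 window and 538 around the chromosome 13 window.

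The cells were C3H10T1/2, a mesenchymal progenitor line from C3H mouse embryos, and each of 4 lines stably expressed 1 histone carrying a FLAG-HA tag: H3.3K36M, H3.3WT, H3.1K36M or H3.1WT. K36M is a lysine-to-methionine change at position 36 of the histone. Each line gave 1 HA ChIP library and 1 input library, and the inputs were not used here. All 4 lines were grown in the same serum-supplemented medium, whether a line is a single clone is not stated in the labels, and the ChIP sees the tagged histone only, not the untagged H3 of the cells. The HA libraries held 38783917 reads (H3.3K36M), 46749609 (H3.3WT), 41705735 (H3.1K36M) and 35487141 (H3.1WT) in the table, and a typical bin of the genome held between 116 and 151 reads. With 1 library per line no difference has a replicate check, so no p-values are given. Intervals are 95% intervals that cover counting error only, and reads counted without molecular identifiers are not independent molecules. The labelled cell type could not be checked against marker genes with these data.

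KRAB zinc finger proteins are repressors that bind DNA, often within transposable elements, through arrays of zinc fingers, and their KRAB domain recruits TRIM28, which brings the H3K9 methyltransferase SETDB1. Their genes lie in clusters that grew by tandem duplication, and many of these genes are themselves covered by H3K9me3 over their last exons. H3.1 is placed during DNA replication by CAF-1, while H3.3 is placed throughout the cell cycle, by HIRA at active genes and by ATRX and DAXX at heterochromatin and repeats. A K36M histone inhibits the enzymes that methylate lysine 36 of H3.

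The windows differed in how much of their length was listed with signal. In the chromosome 2 window, 7 rows covering 1000 kb, or 35.7% of its length, were listed at 0 in all 4 libraries, the longest of them 270 kb. Whether any read could have been placed there was not tested, so these rows say nothing of the histones. No row in its flanks was at 0. The chromosome 13 window had no row at 0, its flanks had 40 kb at 0 (0.667%), and over the genome 0.671% of the length was at 0 once the first row of each chromosome was set aside. A further 41 bins on chromosome 2 and 8 on chromosome 13 fell under 0.5 RPM, so that kept bins made up 46.4% of the chromosome 2 window and 92.9% of the chromosome 13 window, against 96% and 89.7% of their flanks. The sources used here do not say how reads that match several places were handled. No mm9 sequence or gene annotation was used, so no gene, exon or repeat was assigned to a bin.

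Among the kept bins, the chromosome 2 window carried less HA signal than its flanks in every library. Mean levels in the window were 1.92 RPM per 10 kb in H3.3K36M, 1.82 in H3.3WT, 2.22 in H3.1K36M and 2.20 in H3.1WT, with SDs over the 130 bins of 1.35, 1.22, 1.51 and 1.52 RPM in the same order of lines. In the flanks the means were 4.20, 3.19, 4.18 and 3.46 RPM in that order. The window was therefore at 0.456 of the flank level in H3.3K36M (0.446 to 0.466), 0.569 in H3.3WT (0.558 to 0.581), 0.531 in H3.1K36M (0.521 to 0.541) and 0.636 in H3.1WT (0.623 to 0.649), resting on 9620 to 11963 reads per library in the window. All 4 libraries shared this low level, and the window was lower still without the filter. The part of read placement in it was not tested.

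The chromosome 13 window stood close to its flanks. Mean levels were 3.11 RPM per 10 kb in H3.3K36M, 2.64 in H3.3WT, 3.23 in H3.1K36M and 3.07 in H3.1WT (SDs over 130 bins 1.54, 1.38, 1.56 and 1.42 RPM), from 14094 to 17411 reads per library. Its flanks averaged 3.43, 2.41, 3.51 and 3.27 RPM in the same order. Relative to the flanks the window was at 0.908 in H3.3K36M, 1.09 in H3.3WT, 0.919 in H3.1K36M and 0.937 in H3.1WT. H3.3WT alone lay above its flanks, and this order depended on the flanks taken. By side, the H3.3WT mean of 2.64 RPM lay below the proximal flank's 2.86 and above the distal flank's 1.96. Against only the adjoining 1 Mb on each side, all 4 libraries were at or above the flank level. The values were 1.39 in H3.3K36M, 1.91 in H3.3WT, 1.00 in H3.1K36M and 1.05 in H3.1WT.

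**Figure D1:**
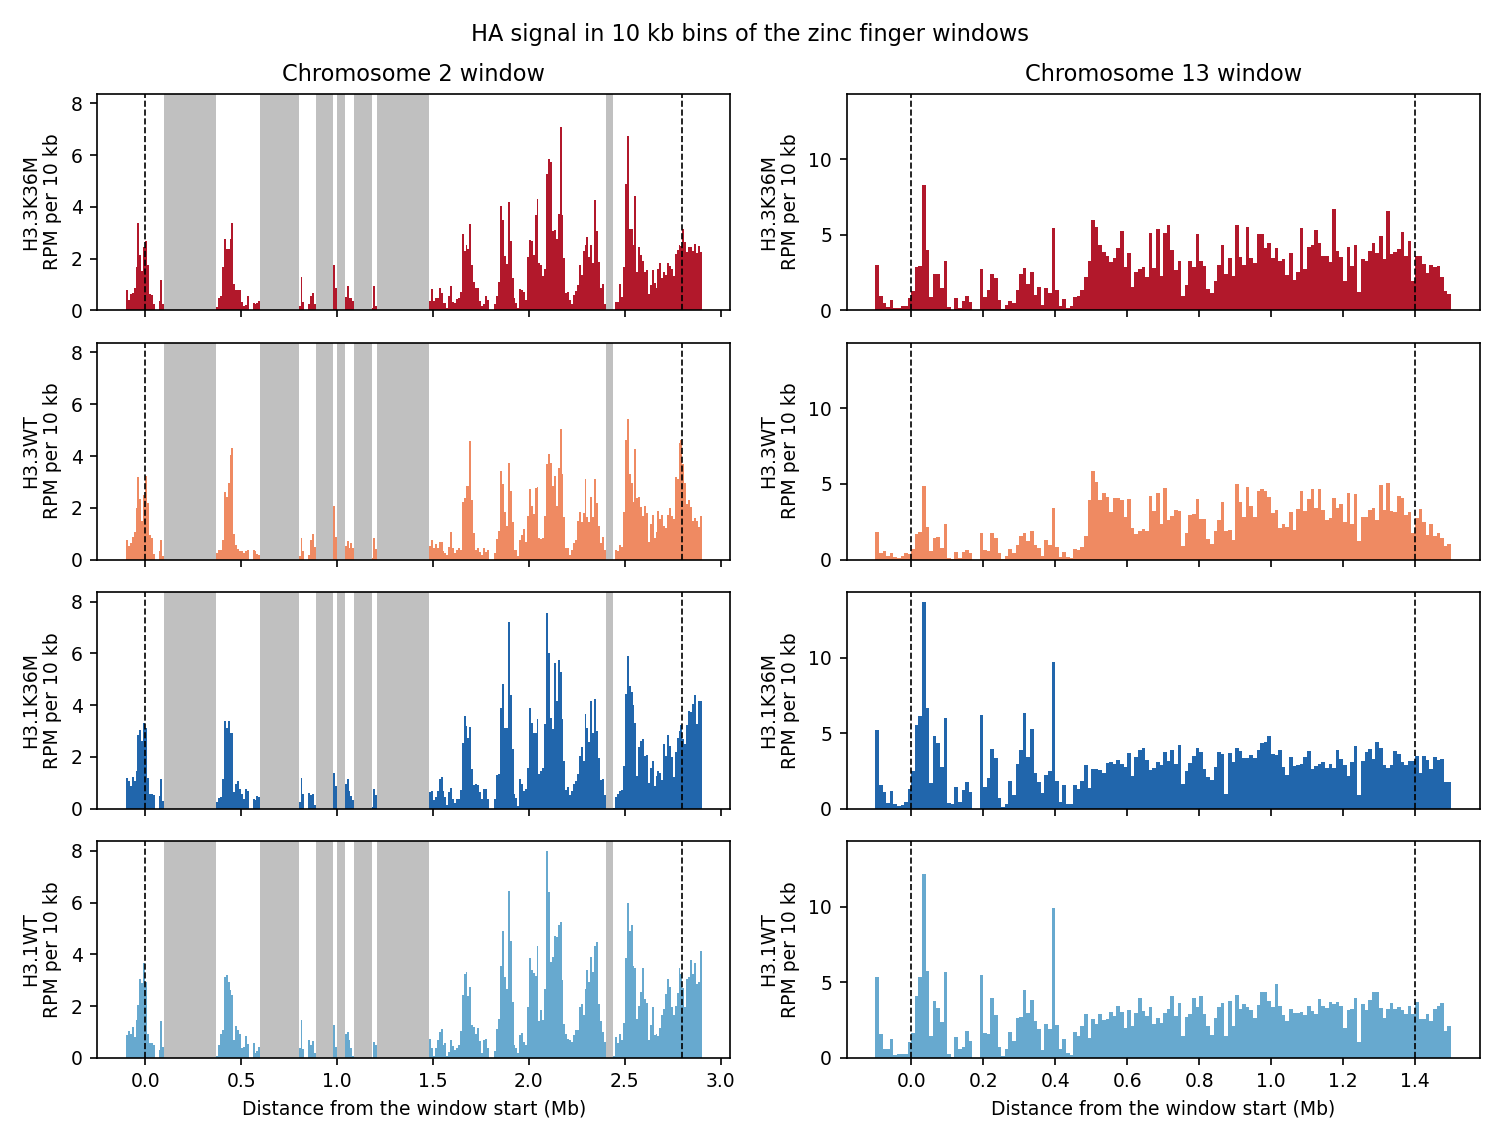
HA ChIP-seq signal in RPM per 10 kb (vertical axis) of the 10 kb bins by distance from the window start in Mb, with the 100 kb on either side, the window between dashed lines, grey bands where a row is listed at 0 in all libraries, and 1 panel per library (H3.3K36M, H3.3WT, H3.1K36M and H3.1WT, top to bottom). The chromosome 2 window is low and broken by the grey bands in all 4 libraries, while in the chromosome 13 window both H3.3 libraries are low over the first part, with means of 1.92 RPM for H3.3K36M beside 1.29 for H3.3WT, and higher over the rest.

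The H3.3 libraries were compared first, to see whether the K36M histone had the same distribution as the wild type in these clusters. Inside the chromosome 2 window H3.3K36M was nearly level with H3.3WT, at a ratio of 1.05 (1.03 to 1.08), while in the flanks it was 1.32 times H3.3WT (1.31 to 1.33). The quotient of the window ratio over the flank ratio was 0.801 (0.778 to 0.824). Taken whole, the chromosome 13 window behaved alike, with a ratio of 1.18 (1.15 to 1.21) in the window, 1.42 (1.41 to 1.44) in the flanks and a quotient of 0.829 (0.809 to 0.850). Its proximal 0.5 Mb, with a border drawn after the values were seen, was at 1.49, and the rest was at 1.13. Both quotients stayed below 1 under every alternative run, between 0.638 and 0.879.

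Taken whole, the windows, rather than the flanks, were the stretches near the level of their chromosomes. For H3.3K36M against H3.3WT the log2 ratio had a median of 0.06 over the bins of the chromosome 2 window and 0.52 in its flanks, with 0.11 over chromosome 2. On chromosome 13 it was 0.25 in the window and 0.64 in the flanks, with 0.29 over the chromosome. Within that window it was 0.57 in the proximal 0.5 Mb and 0.14 in the rest. Over all bins of the genome the median was 0.10, which is also the amount by which scaling to that median would lower each of these values. The flank ratio was 1.32 on both sides of the chromosome 2 window, but around the chromosome 13 window it was 1.26 on the proximal and 1.66 on the distal side.

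Counted by bin, 74 of 130 chromosome 2 bins (56.9%) and 106 of 130 chromosome 13 bins (81.5%) had at least as much signal in H3.3K36M as in H3.3WT, beside 58.4% of all bins of the genome. The share in the flanks was 85.8% on chromosome 2 and 91.3% on chromosome 13. A difference of 2-fold or more, on log2(RPM + 0.1), with H3.3K36M higher was found in 5 bins of the chromosome 2 window (3.85%) and in 2 of the chromosome 13 window (1.54%), against 2.94% of bins genome-wide. The flanks had 17.5% and 18.8% of their bins past that size. No bin of either window was 2-fold lower in H3.3K36M, beside 1.81% genome-wide. The flanks were alike in this, with 1 of 576 bins (0.174%) on chromosome 2 and 0 of 538 on chromosome 13. With a pseudocount of 1 RPM no window bin passed. That pseudocount shrinks the ratios of low bins most and its share over the genome was not taken, so nothing is read from this 0. With scaling to the genome median 1 bin in each window passed (0.769%, beside 1.97% genome-wide).

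Single bins in the chromosome 2 window rest on few reads. The highest ratio was at chr2:175490001-175500000, with 0.803 RPM in H3.3K36M, set against 0.323 in H3.3WT, from 31 reads (H3.3K36M) and 15 reads (H3.3WT), a ratio of 2.49 (1.30 to 4.96). H3.1K36M had 0.771 RPM there and H3.1WT 0.934 RPM, so H3.3WT was the low library of the 4. The next highest, chr2:175400001-175410000, had 1.68 RPM for H3.3K36M beside 0.752 for H3.3WT, a ratio of 2.24 (1.46 to 3.48). The longest run past 2-fold was 20 kb at chr2:177050001-177070000, with 1.79 RPM in H3.3K36M, set against 0.806 in H3.3WT, a ratio of 2.22 (1.66 to 2.98), where H3.1K36M had 1.41 RPM and H3.1WT 1.63 RPM.

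That run lies in the 100 kb block with the highest ratio of the window, chr2:177000001-177100000, at 1.37 (1.25 to 1.50), with 2.73 RPM for H3.3K36M beside 1.99 for H3.3WT. A 200 kb stretch around it, chr2:177000001-177200000, picked after its values were seen, had a ratio of 1.30 (1.23 to 1.38) between the H3.3 lines and of 0.983 (0.932 to 1.04) between the H3.1 lines. H3.3K36M was thus close to its flank ratio in this stretch, and its highest bin of the window, 7.07 RPM at chr2:177160001-177170000, falls there too (H3.3WT 5.05, H3.1K36M 5.28 and H3.1WT 5.26 RPM). The lowest block was at the distal end, chr2:177700001-177800000, with 1.88 RPM in H3.3K36M, set against 2.49 in H3.3WT, a ratio of 0.757 (0.689 to 0.831).

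The bins with the lowest ratios were the last of that block. At chr2:177790001-177800000, H3.3K36M had 2.49 RPM and H3.3WT 4.60 RPM, a ratio of 0.540 (0.420 to 0.691), and at chr2:177780001-177790000 the values were 2.51 RPM for H3.3K36M beside 4.49 for H3.3WT, a ratio of 0.559 (0.435 to 0.715). The H3.1 libraries were level there, between 3.01 and 3.45 RPM, with H3.3WT above them and H3.3K36M below them. Across the window, 6 of the 13 blocks of 100 kb with at least 5 kept bins had H3.3K36M at or above H3.3WT (range 0.757 to 1.37), whereas 26 of 30 blocks did in the proximal flank (0.825 to 2.64) and 26 of 30 in the distal flank (0.930 to 2.76).

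In the chromosome 13 window all 14 blocks had H3.3K36M at or above H3.3WT, as did 29 of 30 blocks in its proximal flank and 30 of 30 in its distal flank. The highest was the first, chr13:66500001-66600000, with 2.98 RPM in H3.3K36M, set against 1.78 in H3.3WT, a ratio of 1.68 (1.53 to 1.83). The lowest was chr13:67000001-67100000, with 4.22 RPM for H3.3K36M beside 4.15 for H3.3WT, a ratio of 1.02 (0.952 to 1.09). The bin with the highest ratio was chr13:66710001-66720000, at 1.32 RPM in H3.3K36M, set against 0.559 in H3.3WT, a ratio of 2.36 (1.45 to 3.95).

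The next highest bin, chr13:67210001-67220000, had 5.67 RPM for H3.3K36M beside 2.64 for H3.3WT, a ratio of 2.14 (1.71 to 2.70), with 3.13 RPM in H3.1K36M, set against 3.23 in H3.1WT. It holds the 1 peak that the authors' H3.3K36M list places in either window, chr13:67213601-67214600, 1 kb long. The lowest ratios were mild: at chr13:67110001-67120000 H3.3K36M had 1.53 RPM and H3.3WT 2.09 RPM (0.733, 0.521 to 1.02), and at chr13:67570001-67580000 the values were 2.54 RPM for H3.3K36M and 3.33 for H3.3WT (0.762, 0.585 to 0.987).

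**Figure D2:**
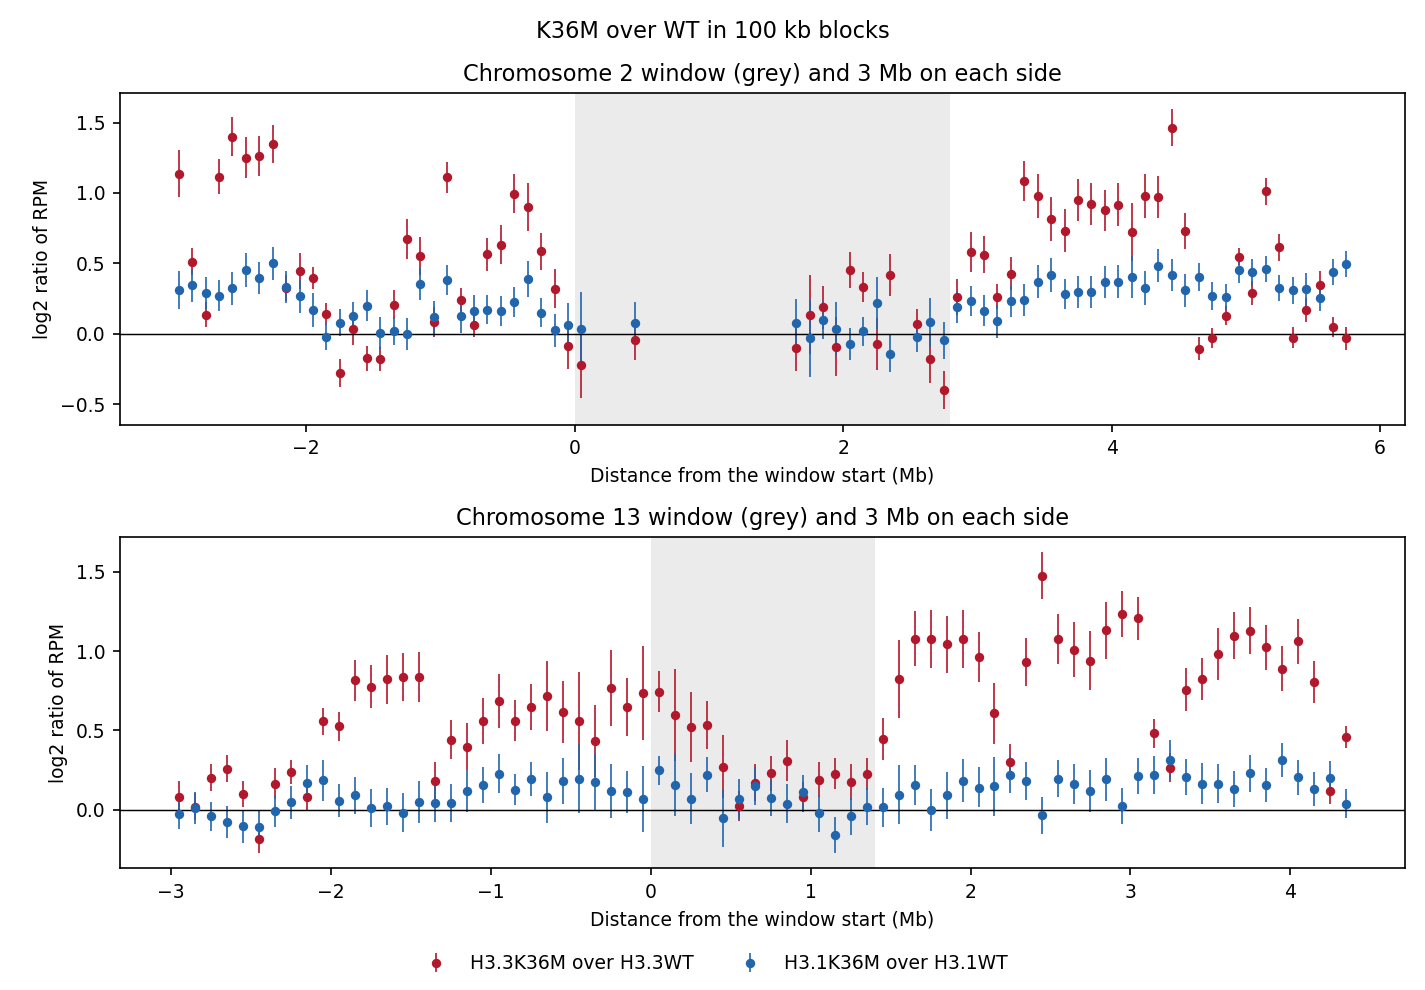
Log2 ratio of K36M over WT signal (vertical axis) in 100 kb blocks by distance from the window start in Mb, for the H3.3 lines and the H3.1 lines, with the window in grey and counting intervals as bars. Between the H3.3 lines the blocks of the chromosome 2 window range between ratios of 0.757 and 1.37 (linear scale), below most of their flank blocks, and the chromosome 13 window has its highest ratio, 1.68, at its proximal end.

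The H3.1 lines give the same comparison for the replication-coupled variant. In the chromosome 2 window H3.1K36M was level with H3.1WT, at 1.01 (0.982 to 1.04), and its flanks were at 1.21 (1.20 to 1.22), for a quotient of 0.834 (0.811 to 0.858). The median log2 ratio was 0.03 in the window, 0.28 in the flanks and 0.02 over chromosome 2, so here too the window was at the chromosome's level. In the distal flank all 30 blocks were at or above 1, between 1.06 and 1.41, and in the proximal flank 28 of 30 were, between 0.983 and 1.41. The 13 usable blocks of the window lay between 0.907 and 1.16. A lower K36M-over-WT ratio inside the chromosome 2 window than outside it was thus present for both variants, and the lines share no library between these 2 ratios.

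On chromosome 13 the H3.1 ratio was 1.05 (1.03 to 1.08) in the window and 1.07 (1.06 to 1.08) in the flanks, and the interval of the quotient, 0.980 (0.956 to 1.005), covered 1. No bin of either window was 2-fold apart between the H3.1 lines, beside 0.0122% of bins genome-wide that were higher in H3.1K36M and 0.064% that were lower. At least as much signal in H3.1K36M was found in 73 of 130 bins on chromosome 2 and 77 of 130 on chromosome 13, beside 49.8% genome-wide, and in 87.8% and 68.4% of the flank bins.

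The H3.1 bins farthest apart hold few reads. The highest were chr2:175990001-176000000, at 0.892 RPM for H3.1K36M beside 0.424 for H3.1WT, a ratio of 2.10 (1.13 to 4.12), and chr13:66860001-66870000, at 1.06 RPM in H3.1K36M, set against 0.509 in H3.1WT, a ratio of 2.08 (1.18 to 3.83). The lowest was chr2:175390001-175400000, at 0.434 RPM for H3.1K36M beside 0.906 for H3.1WT, a ratio of 0.479 (0.253 to 0.880). With the pseudocount of 0.1 RPM none of these reached 2-fold.

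H3.3 was then set against H3.1, within the K36M lines and within the WT lines. The ratio H3.3WT over H3.1WT shares the H3.3WT library with the ratio H3.3K36M over H3.3WT, so the values of one move with the other. In the chromosome 2 window H3.3K36M was at 0.864 of H3.1K36M (0.841 to 0.888) and H3.3WT at 0.826 of H3.1WT (0.804 to 0.849). In the chromosome 13 window the ratios were 0.965 (0.944 to 0.986) in the K36M lines and 0.860 (0.841 to 0.880) in the WT lines. A typical bin of the genome had less H3.3 than H3.1, with median log2 ratios of -0.30 in the K36M lines and -0.43 in the WT lines, and scaling to the genome median would raise every such value by the size of that median.

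Whether the windows stood above or below the genome depended on the measure. By means they were below it, since over all bins the ratio was 0.996 in the K36M lines and 0.998 in the WT lines. Scaling to library size holds that ratio of means near 1, so it is not a measured level of the genome. By medians over bins the windows were above the genome. The log2 ratio of H3.3K36M over H3.1K36M had a median of -0.21 in the chromosome 2 window and -0.11 in the chromosome 13 window, and that of H3.3WT over H3.1WT was -0.39 and -0.29. The medians over all of chromosome 2 were -0.20 in the K36M lines and -0.27 in the WT lines, both above those of its window, and over chromosome 13 they were -0.26 in the K36M lines and -0.45 in the WT lines, both below those of its window. Bins with H3.3K36M at or above H3.1K36M numbered 47 of 130 (36.2%) on chromosome 2 and 56 of 130 (43.1%) on chromosome 13, beside 32.1% of the genome's bins. In the WT lines they numbered 41 (31.5%) and 50 (38.5%), beside 35.7%, so the shares in the WT lines were near that of the genome. Of the bins at or above in the WT lines, 26 of 41 on chromosome 2 (63.4%) were also so in the K36M lines, as were 40 of 50 on chromosome 13 (80%), beside 71% genome-wide and 84.9% and 91.5% in the flanks. Of the bins below in the WT lines, 21 of 89 on chromosome 2 (23.6%) and 16 of 80 on chromosome 13 (20%) were at or above in the K36M lines. The share was 10.4% genome-wide, and 12.1% and 12.8% in the flanks. The part of low read counts and of bins close to parity in these shares was not tested.

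The ratio was then set against that of the sequence next to each window. In the adjoining 1 Mb on both sides H3.3K36M was at 0.837 of H3.1K36M (0.823 to 0.852) around the chromosome 2 window and at 0.698 (0.683 to 0.714) around the chromosome 13 window. In the WT lines the ratios there were 0.675 (0.663 to 0.689) and 0.473 (0.461 to 0.485). By side, the adjoining 1 Mb of the chromosome 2 window was at 0.928 (0.907 to 0.951) proximally and 0.750 (0.732 to 0.769) distally in the K36M lines, so that the window's 0.864 lay between them, and at 0.761 and 0.590 in the WT lines, both below the window's 0.826. For chromosome 13 the quotient of the window over the adjoining 1 Mb was 1.38 in the K36M lines and 1.82 in the WT lines. Over the 3 Mb flanks of chromosome 13, the K36M lines had a flank ratio of 0.977 (0.967 to 0.987) and a quotient of 0.988 (0.965 to 1.01). The WT lines had a flank ratio of 0.736 (0.728 to 0.744) and a quotient of 1.17 (1.14 to 1.20). These flank ratios differed by side, at 1.02 proximally and 0.933 distally in the K36M lines, and at 0.839 and 0.625 in the WT lines.

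For chromosome 2 the direction depended on the flanks. With 3 Mb on each side, flank ratios were 1.01 (0.997 to 1.01) in the K36M lines and 0.923 (0.913 to 0.932) in the WT lines, with quotients of 0.859 (0.835 to 0.884) in the K36M lines and 0.896 (0.870 to 0.922) in the WT lines. Against the adjoining 1 Mb the quotients were 1.03 (K36M lines, with an interval of 0.9996 to 1.07 that covers 1) and 1.22 (WT lines, 1.18 to 1.26), and taken from the medians of bins they were 1.08 (K36M lines) and 1.39 (WT lines). The flanks are uneven: the SD of H3.3WT over flank bins was 2.59 RPM around a mean of 3.19 RPM, with bins up to 15.1 RPM, while the H3.1WT flank bins had an SD of 0.962 RPM.

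Bins 2-fold lower in H3.3WT were scarcer in the windows than around them. In the K36M lines H3.3K36M was 2-fold below H3.1K36M in 3 of 130 bins of the chromosome 2 window (2.31%), beside 3.29% genome-wide and 3.47% of its flank bins, but on chromosome 13 in 9 of 130 (6.92%), above the 4.65% of its flanks. It was 2-fold above in 0 bins on chromosome 2 and 6 on chromosome 13 (4.62%), beside 8.18% genome-wide. The flanks had 8.51% of their bins 2-fold above on chromosome 2 and 6.51% on chromosome 13. H3.3WT was 2-fold below H3.1WT in 13 of 130 bins (10%) of the chromosome 2 window and in 31 of 130 (23.8%) of the chromosome 13 window. The share was 16.8% genome-wide, and 30.9% and 51.3% in the flanks. On chromosome 13 nearly all of these bins lay in the proximal 0.5 Mb, 30 of its 40 bins (75%), a share above that of the flanks. The rest of that window had 1 in 90 bins (1.11%). H3.3WT was 2-fold above H3.1WT in 2 bins on chromosome 2 (1.54%) and 3 on chromosome 13 (2.31%), beside 10.3% genome-wide. The flank shares were 10.2% on chromosome 2 and 4.46% on chromosome 13. Scaling to the genome median shifts every bin alike. It gave 0 bins higher and 2 lower on chromosome 2 and 17 higher and 2 lower on chromosome 13 in the K36M lines, beside 12.7% higher and 0.394% lower genome-wide. In the WT lines it gave 13 higher and 0 lower on chromosome 2 (10% and 0%) and 11 higher and 6 lower on chromosome 13 (8.46% and 4.62%), beside 19.9% higher and 1.72% lower genome-wide.

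**Figure D3:**
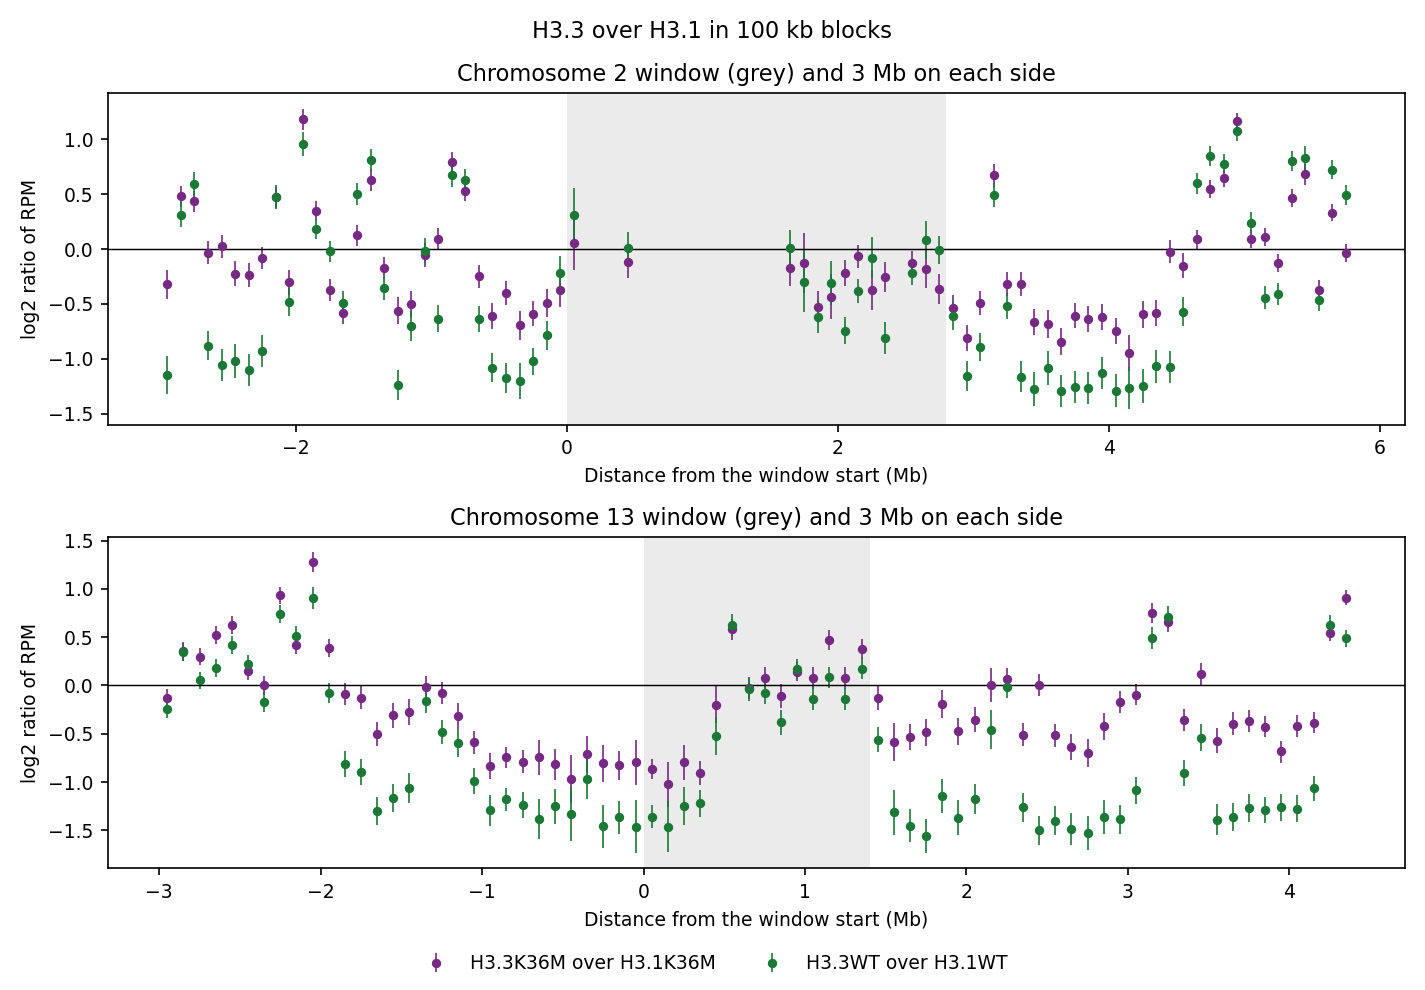
Log2 ratio of H3.3 over H3.1 signal (vertical axis) in 100 kb blocks by distance from the window start in Mb, in the K36M lines and the WT lines, with the window in grey and counting intervals as bars. In the chromosome 13 window the WT ratio lies between 0.363 and 1.54 (linear scale), low over the proximal part and closer to 1 or above it over the rest.

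The chromosome 13 window consists of 2 unlike parts, whose border was drawn after the values were seen. In the proximal part, chr13:66500001-67000000 (40 bins), the levels were 1.92 RPM in H3.3K36M, 1.29 in H3.3WT, 3.34 in H3.1K36M and 2.95 in H3.1WT. H3.3K36M was at 0.573 of H3.1K36M there (0.548 to 0.600) and H3.3WT at 0.436 of H3.1WT (0.415 to 0.459). Only 1 of the 40 bins (2.5%) had H3.3 at or above H3.1, in either pair of lines. Genome-wide the share was 32.1% in the K36M lines and 35.7% in the WT lines. The adjoining 1 Mb on the proximal side had like ratios, 0.578 (0.559 to 0.598) in the K36M lines and 0.416 (0.400 to 0.432) in the WT lines.

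In the distal part, chr13:67000001-67900000 (90 bins), the levels were 3.65 RPM in H3.3K36M, 3.24 in H3.3WT, 3.18 in H3.1K36M and 3.12 in H3.1WT. H3.3K36M was at 1.15 of H3.1K36M (1.12 to 1.18) and H3.3WT at 1.04 of H3.1WT (1.01 to 1.07). H3.3 was at or above H3.1 in 55 of 90 bins in the K36M lines (61.1%) and in 49 in the WT lines (54.4%). The genome-wide shares were 32.1% in the K36M lines and 35.7% in the WT lines. Both H3.3 means were higher in the distal part than in the proximal part. The H3.1 means of the 2 parts were close, but the proximal means include bins of up to 13.7 RPM. By medians H3.1K36M had 3.12 RPM in the distal and 2.43 RPM in the proximal part, and H3.1WT had 3.16 RPM in the distal and 2.22 RPM in the proximal part. Between the H3.3 lines the ratio K36M over WT was 1.49 (1.41 to 1.57) in the proximal part and 1.13 (1.10 to 1.15) in the distal part, and between the H3.1 lines it was 1.13 (1.09 to 1.18) and 1.02 (0.992 to 1.05).

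The step occurred within 1 bin. At chr13:66980001-66990000 H3.3K36M had 2.20 RPM, H3.3WT 1.57, H3.1K36M 2.92 and H3.1WT 2.89. The next bin, chr13:66990001-67000000, had 3.26 RPM in H3.3K36M, 3.91 in H3.3WT, 1.35 in H3.1K36M and 1.33 in H3.1WT. It had the highest H3.3WT over H3.1WT of the window, 2.94 (2.12 to 4.15), followed by its neighbour chr13:67000001-67010000 at 2.27 (1.78 to 2.91), with 5.85 RPM for H3.3WT beside 2.58 for H3.1WT. The level of 5.85 RPM was the highest of H3.3WT in the window.

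From that bin on, H3.3 stayed at or above H3.1 for 120 kb, chr13:66990001-67110000, in both pairs of lines. This was the longest such run of the window. It averaged 4.11 RPM in H3.3K36M, 4.12 in H3.3WT, 2.77 in H3.1K36M and 2.62 in H3.1WT, a ratio of 1.48 (1.38 to 1.59) in the K36M lines and 1.57 (1.46 to 1.69) in the WT lines. The first 30 kb of it, chr13:66990001-67020000, were the longest stretch past 2-fold in the K36M lines, at 2.23 (1.93 to 2.59). The 2 highest bins in the K36M lines lay farther on, at chr13:67820001-67830000 with 6.58 RPM in H3.3K36M, set against 2.68 in H3.1K36M (2.46, 1.96 to 3.1), and at chr13:67670001-67680000 with 6.68 RPM for H3.3K36M and 2.72 for H3.1K36M (2.45, 1.96 to 3.09).

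The longest stretch with H3.3WT 2-fold below H3.1WT opened the window. Over 100 kb, chr13:66500001-66600000, H3.3WT averaged 1.78 RPM and H3.1WT 4.56 RPM, a ratio of 0.390 (0.358 to 0.425). H3.3K36M had 2.98 RPM there and H3.1K36M 5.41 RPM. It includes chr13:66530001-66540000, the highest bin of the window in H3.3K36M (8.29 RPM), H3.1K36M (13.7 RPM) and H3.1WT (12.2 RPM), where H3.3WT had 4.86 RPM. The lowest single bins were chr13:66690001-66700000, with 1.76 RPM for H3.3WT beside 5.49 for H3.1WT (0.321, 0.245 to 0.418), and chr13:66890001-66900000, with 3.42 RPM for H3.3WT and 9.93 for H3.1WT (0.344, 0.284 to 0.416). These bins were high in H3.1 rather than empty of H3.3.

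The chromosome 2 window was also split after its values were seen. In the proximal part, chr2:175000001-176800000 (46 bins), mean levels were low and alike. They were 1.28 RPM in H3.3K36M, 1.33 in H3.3WT, 1.40 in H3.1K36M and 1.34 in H3.1WT. H3.3K36M over H3.1K36M was 0.918 (0.868 to 0.971) and H3.3WT over H3.1WT 0.998 (0.943 to 1.06). In the distal part, chr2:176800001-177800000 (84 bins), levels were 2.26, 2.08, 2.67 and 2.67 RPM in the same order of lines, with ratios of 0.849 (0.823 to 0.875) in the K36M lines and 0.779 (0.755 to 0.804) in the WT lines. By medians over bins, H3.3WT over H3.1WT was below parity in both parts, at a log2 ratio of -0.31 in the proximal and -0.43 in the distal part. For H3.3K36M over H3.1K36M these medians were -0.08 and -0.29. H3.3K36M over H3.3WT was 0.962 (0.910 to 1.02) in the proximal and 1.09 (1.05 to 1.12) in the distal part.

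H3.3 exceeded H3.1 in short pieces of the chromosome 2 window. The longest run at or above parity in the WT lines was the first 40 kb, chr2:175000001-175040000, at 1.80 RPM in H3.3WT, set against 1.25 in H3.1WT, a ratio of 1.44 (1.20 to 1.74). It holds the bin with the highest ratio, chr2:175010001-175020000, with 2.19 RPM for H3.3WT beside 0.934 for H3.1WT (2.35, 1.57 to 3.59), and the next highest was chr2:177670001-177680000 with 1.87 RPM for H3.3WT and 0.849 for H3.1WT (2.20, 1.44 to 3.46). The lowest were the neighbours chr2:175480001-175500000, at 0.365 RPM in H3.3WT, set against 1.00 in H3.1WT, a ratio of 0.364 (0.234 to 0.555).

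In the K36M lines the highest ratio of that window was 1.63 (1.32 to 2.03) at chr2:177110001-177120000, with 5.75 RPM for H3.3K36M beside 3.52 for H3.1K36M. The lowest was 0.277 (0.110 to 0.617) at chr2:175520001-175530000, on 8 reads for H3.3K36M and 31 for H3.1K36M. H3.1 was highest at chr2:177090001-177100000 in both H3.1 lines, with 7.54 RPM in H3.1K36M, set against 7.98 in H3.1WT, and H3.3WT at chr2:177510001-177520000, with 5.44 RPM. Both bins lie in the distal part.

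**Figure D4:**
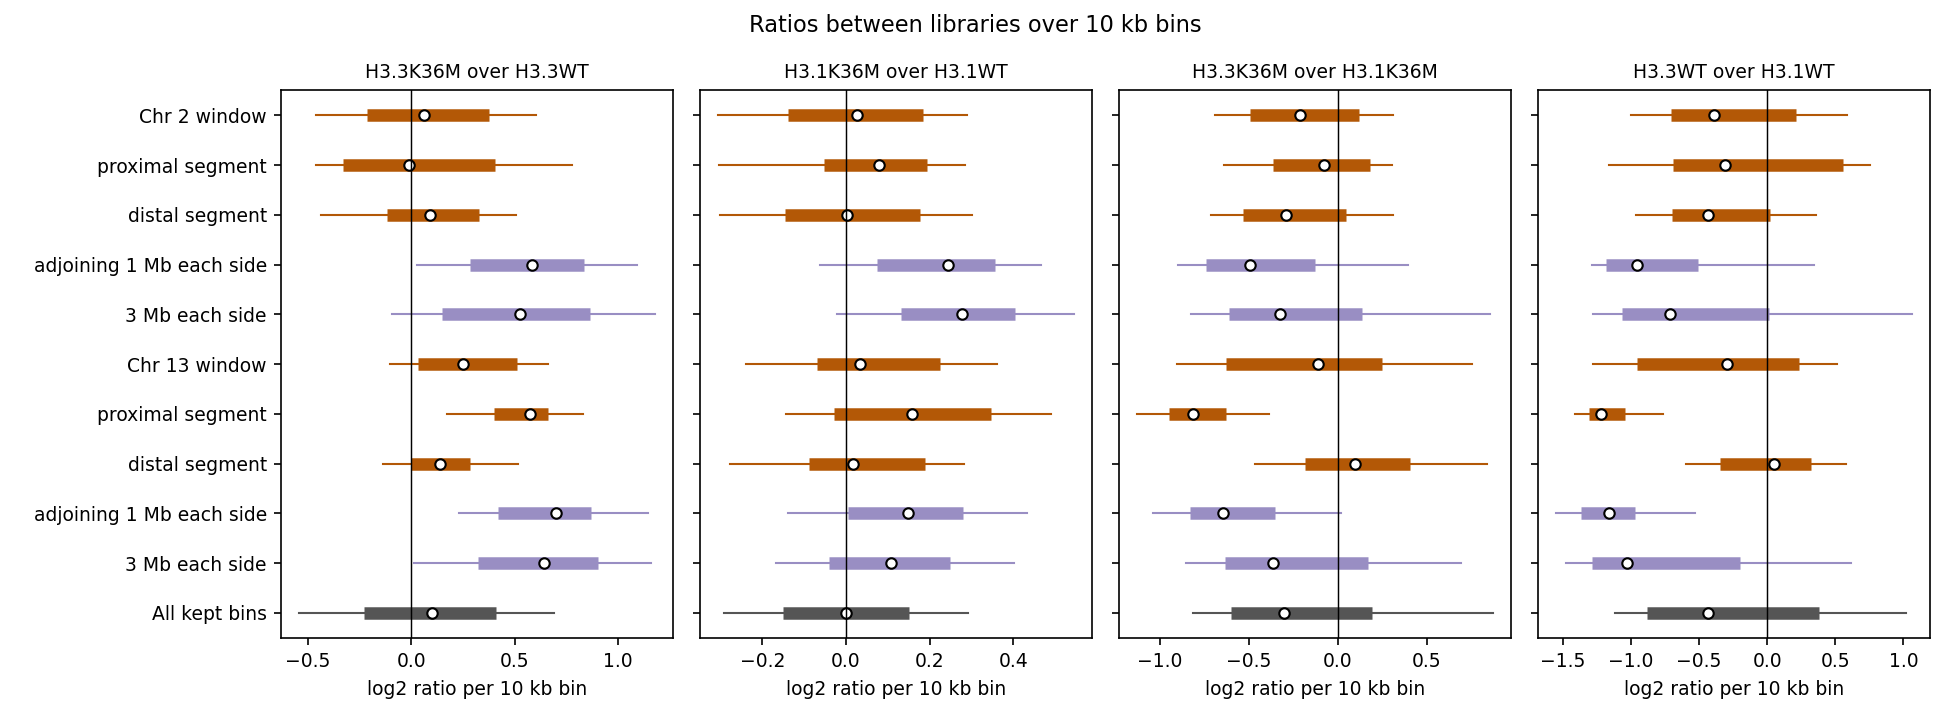
Log2 ratio between libraries over kept 10 kb bins for the 4 comparisons, for each window, its parts and the sequence around it; points are medians, thick bars the middle 50% of bins and thin bars the middle 80%, a spread over bins and not over replicates. The medians of H3.3K36M over H3.3WT are 0.06 (window) and 0.52 (flanks) on chromosome 2, and 0.25 (window) and 0.64 (flanks) on chromosome 13.

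The variants followed each other more closely in the chromosome 2 window than around it. Over its 130 bins the log2 signal of H3.3K36M and H3.1K36M had a Pearson r of 0.910 (Spearman rho 0.924), against 0.415 (0.340) over the 576 flank bins and 0.522 (0.463) over all bins. For H3.3WT and H3.1WT r was 0.820 in the window, 0.378 in the flanks and 0.507 over all bins. In the chromosome 13 window the same correlations were 0.683 in the K36M lines and 0.676 in the WT lines, against 0.691 (K36M lines) and 0.637 (WT lines) in the flanks. The libraries of 1 variant were close everywhere, with r between 0.851 and 0.964 in windows and flanks. In the chromosome 2 window, however, H3.3K36M was no closer to H3.3WT (r 0.908) than to H3.1K36M (0.910). These are descriptions across bins, which share their sequence and neighbours within each library and are not replicates. In the chromosome 2 window, 68 of the 130 bins averaged under 2 RPM over the H3.1 libraries, against 15 of 576 in the flanks, and what this share of low bins adds to the correlation was not tested.

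To set bins of like H3.1 level side by side, a split made after the data were seen, the ratios were also taken in bins with an H3.1 mean of at least 2 RPM, 62 in the chromosome 2 window and 561 in its flanks. There H3.3WT over H3.1WT differed from the flanks by a quotient of 0.867 on chromosome 2, but medians gave the opposite direction. The median log2 ratio was -0.45 in the window and -0.72 in the flank bins of that level. On chromosome 13 the ratio at that level was 0.879 in the window (109 bins) and 0.746 in the flanks (474 bins). Under 2 RPM the quotient was 0.598 on chromosome 2, with only 15 flank bins, and medians gave the opposite direction: the median log2 ratio was -0.22 in the window and -0.47 in those flank bins. In the 15 flank bins H3.3WT had a mean of 1.99 RPM and a median of 0.774 RPM, with 3 bins 2-fold above H3.1WT. On chromosome 13, with 21 window bins and 64 flank bins under 2 RPM, it was 1.14. The K36M-over-WT quotient of the H3.3 lines under 2 RPM was 0.879 on chromosome 2 and 0.797 on chromosome 13.

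Peaks were rare in the windows. The authors' list for H3.3K36M, with 8375 peaks or 3.18 per Mb genome-wide, has none in the chromosome 2 window and 1 in the chromosome 13 window (0.714 per Mb). Its flanks hold 6 peaks proximal and 10 distal on chromosome 2, and 16 proximal and 4 distal on chromosome 13. The nearest peaks outside the chromosome 2 window were 1444 kb and 1640 kb away, and those outside the chromosome 13 window 1713 kb and 2893 kb away. The list for H3.1K36M has 73 peaks and none in the windows or flanks. The lists give positions with no score, and no WT list was used here, so a peak count cannot be compared between K36M and WT.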

How the data were processed

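HA ChIP-seq libraries of 4 lines, 1 each, were used. The submitters' processing notes name the aligner Bowtie 1.0.0 and build mm9. Groups follow the genotype field; an H3.1 name opens the titles of the H3.3 ChIP samples, and the protocol text names a Cbx2 antibody where the descriptions name HA. The authors deposited RPM per genomic bin, and peak positions for H3.3K36M and H3.1K36M. Rows wider than 10 kb hold sums and were divided by their width where used. Each RPM column was a whole multiple of its smallest value above 0 (100% of values within 0.01 of a read), which gave the counts of reads in the deposited table. Duplicate removal, read extension, the peak caller and its control are not given in the sources used here.

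Ratios are of mean RPM over bins averaging at least 0.5 RPM; bin counts use log2(RPM + 0.1) and 2-fold. Intervals are exact binomial (Clopper-Pearson), or a normal approximation on the log scale for quotients. Blocks are 100 kb with at least 5 kept bins. Named regions are, per window and comparison, the 2 highest and 2 lowest bins and the longest runs, the highest and lowest bin per library, the extreme blocks of H3.3K36M over H3.3WT, and peaks in the windows. The windows, lists and comparisons were chosen with earlier results of these data known. Computations used scipy 1.17.1, pandas 2.3.3 and numpy 2.4.6 under Python 3.11.15, with figures from matplotlib 3.10.9, and were tested on simulated data. Alternatives were the filter, wider rows, flank width, medians, pseudocount, scaling, peak overlap and, added after seeing the data, a split by H3.1 level and all rows without a filter.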

Additional observations from a re-analysis of the deposited data

Results flagged for a closer look

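Relative to its 3 Mb flanks, H3.3 over H3.1 in the chromosome 13 window lay on opposite sides of 1 in the K36M and WT lines. The quotient was 0.988 (0.965 to 1.01) for H3.3K36M over H3.1K36M and 1.17 (1.14 to 1.20) for H3.3WT over H3.1WT. With 1 library per line the difference was not tested, and the interval of the K36M value covers 1. The 2 flanks were unlike. In the K36M lines the window's 0.965 lay below the proximal flank's 1.02 and above the distal flank's 0.933. In the WT lines the window's 0.860 was close to the proximal flank's 0.839 and above the distal flank's 0.625. Against the adjoining 1 Mb both quotients were above 1, at 1.38 in the K36M lines and 1.82 in the WT lines.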

How the results depend on the processing

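No paired analysis was possible because each group has 1 library. For the values below the cause was not tested, apart from what the alternative itself changes. In order H3.3K36M, H3.3WT, H3.1K36M and H3.1WT, the chromosome 2 window over its flanks was 0.363, 0.456, 0.427 and 0.510 without the filter, 0.223, 0.279, 0.264 and 0.316 with all rows (chosen after seeing the data), 0.626, 0.857, 0.607 and 0.701 with 1 Mb flanks, and 0.496, 0.778, 0.458 and 0.559 by medians. On chromosome 13 the direction turned with 1 Mb flanks for H3.3K36M (1.39), H3.1K36M (1.004) and H3.1WT (1.05), H3.3WT being at 1.91. By medians H3.3K36M turned to 1.13, with H3.3WT at 1.77 and H3.1K36M at 0.873.

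Quotients of window over flanks are given for H3.3K36M over H3.3WT, H3.1K36M over H3.1WT, H3.3K36M over H3.1K36M and H3.3WT over H3.1WT. With 1 Mb flanks they were 0.730, 0.866, 1.03 and 1.22 on chromosome 2, the last 2 turned round (the 1.03 with an interval that covers 1), and 0.727, 0.955, 1.38 and 1.82 on chromosome 13. By medians, H3.3K36M over H3.3WT was 0.638 on both chromosomes, H3.1K36M over H3.1WT was 0.926 on chromosome 13, and the H3.3 over H3.1 quotients turned to 1.08 (K36M) and 1.39 (WT) on chromosome 2 and were 1.30 (K36M) and 1.88 (WT) on chromosome 13. In bins with an H3.1 mean under 2 RPM they were 0.879, 0.951, 0.553 and 0.598 on chromosome 2, and 0.797, 0.953, 0.950 and 1.14 on chromosome 13. For the 0.553 and the 0.598, with only 15 flank bins, median log2 ratios of bins gave the opposite direction. They were -0.09 (window) and -0.41 (flanks) in the K36M lines, and -0.22 and -0.47 in the WT lines. At 2 RPM or above, H3.3WT over H3.1WT was 0.867 on chromosome 2, where the median log2 ratios of bins gave the opposite direction.

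Counts of bins 2-fold apart moved as follows. With the changed pseudocounts and without the filter, no share over the genome was taken. A pseudocount of 1 RPM shrinks the ratios of low bins most. A pseudocount of 1 RPM left 0 in the chromosome 2 window for H3.3K36M over H3.3WT higher, H3.3WT over H3.1WT higher and lower, and H3.3K36M over H3.1K36M lower. On chromosome 13 it left 0 for H3.3K36M over H3.3WT higher and for H3.3K36M over H3.1K36M lower, 2 for the same ratio higher, and 1 higher and 6 lower for H3.3WT over H3.1WT. Scaling to the genome median, which shifts every bin of the genome alike, gave 1 bin higher in each window for H3.3K36M over H3.3WT. For H3.3WT over H3.1WT it gave 13 higher and 0 lower on chromosome 2, and 11 higher and 6 lower on chromosome 13. For H3.3K36M over H3.1K36M it gave 17 higher and 2 lower on chromosome 13. A pseudocount of 0.01 RPM gave 1 bin higher and 1 lower on chromosome 2 and 1 higher on chromosome 13 for the H3.1 lines, and 4 higher for H3.3WT over H3.1WT on chromosome 2. Without the filter the H3.1 lines had 3 bins higher on chromosome 2 and 1 on chromosome 13, H3.3WT over H3.1WT had 4 higher and H3.3K36M over H3.1K36M 6 lower on chromosome 2. Adding wider rows left all 16 values close to those reported, and counting peaks by their centre left all 12 unchanged. Depth limits single bins most: window bins under 1 RPM hold few reads, and their intervals span several-fold.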

Other observations

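The 41 bins left out for low signal in the chromosome 2 window averaged 0.292 RPM in H3.3K36M, 0.305 in H3.3WT, 0.410 in H3.1K36M and 0.380 in H3.1WT, from 462, 582, 697 and 551 reads. The 8 such bins of the chromosome 13 window averaged 0.197 RPM in H3.3K36M, 0.126 in H3.3WT, 0.328 in H3.1K36M and 0.340 in H3.1WT, from 61, 47, 109 and 96 reads. Both H3.3 libraries were below both H3.1 libraries in each set, and bins chosen for low signal carry this order as a description only. The single row wider than 10 kb on chromosome 13 was chr13:66670001-66690000, with 0.868 RPM per 10 kb in H3.3K36M, 0.591 in H3.3WT, 1.31 in H3.1K36M and 1.36 in H3.1WT. On chromosome 2 the wider row with the highest mean per 10 kb over the 4 libraries was chr2:175540001-175560000, with 0.401 RPM per 10 kb in H3.3K36M, 0.366 in H3.3WT, 0.530 in H3.1K36M and 0.368 in H3.1WT.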
